A study of Homo sapiens with 8 samples.

Results

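The p53 pathway was followed through 9 genes, MDM2, CDKN1A, PLK3, SESN1, ZMAT3, TP53INP1, RRM2B, BTG2 and GDF15, taken by gene symbol from the 16796 genes counted in each library. All 9 were found. Messenger RNA had been sequenced in LX-2, an immortalized cell line from human hepatic stellate cells (HSCs), the cells that become the scar-forming myofibroblasts of the liver. Control cells received the vehicle DMSO, and OGTi cells received OSMI-1 at 50 µM, a small molecule that inhibits O-GlcNAc transferase (OGT), the enzyme that puts the sugar O-GlcNAc on intracellular proteins. Both groups were kept for 24 h in medium with 5% serum, and each had 4 libraries from biological replicates. The question was how gene expression in these cells differs when OGT is inhibited.

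The protein p53 is a transcription factor that is held at a low level by MDM2, a ubiquitin ligase that marks it for degradation. When DNA damage or other stress releases it, p53 binds a paired decamer sequence in its target genes and raises their transcription. Its targets include CDKN1A, whose product p21 inhibits cyclin-dependent kinases (CDKs) and halts the cell cycle, and MDM2 itself, which closes a feedback loop. Several of the 9 genes are also induced by routes that do not need p53. LX-2 cells were derived from a line made with the SV40 large T antigen, a viral protein that binds p53 and the retinoblastoma protein, which limits the line as a model of this pathway. The protein p53 was not measured, and viral transcripts were not analysed here.

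The libraries held 24166756 to 28201215 counts. Stellate cell markers were abundant, with a summed level of 197600 to 237900 normalized counts (counts divided by a size factor for depth) in control and 144100 to 166900 in OGTi libraries. However, DES, DCN, LUM and LRAT stayed under 10 counts in every library. In the test described below, 6 of the 7 stellate markers with an adjusted p were called lower (85.7%, against 24.0% of all genes). VIM, which gave much of the sum, was not called (mean of 95090 in control and 89630 in OGTi libraries). Of the hepatocyte list, 2 of 6 markers were measured, with a sum of at most 74.0 in either group and APOA1 under 10 counts in every library. The summed level of the endothelial list was 75.0 to 98.6 in control and at most 45.7 in OGTi libraries, with PECAM1 and KDR under 10 counts in every library. The cholangiocyte list, with KRT19 under 10 counts throughout, summed to 681 to 1151 in control and 955 to 1273 in OGTi libraries. Most of that sum came from SOX9 (580 to 1019 in control, 906 to 1196 in OGTi libraries). KRT7 went the other way, from a mean of 111 to 53.9 normalized counts. The immune list summed to 2513 to 4093 in control and 5645 to 9409 in OGTi libraries, nearly all of it from CD68, a lysosomal gene, while its defining marker PTPRC had at most 11.5 normalized counts. Bulk libraries cannot tell a change in every cell from a change in the share of cells that express a gene. The part of these differences in the results was not tested.

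The sequence that p53 recognizes was looked for around the members, because it is what links them as targets of the same factor. The p53 consensus is 20 bases long and is made of 2 abutting decamers that read the same on both strands. Each decamer has a C and a G in its centre, which had to match, and at most 2 of the remaining positions were allowed to differ. In windows from 2500 bases before to 2500 bases after the start of the MANE Select transcript (hg38), such a match was present in 6 of the 9 members (66.7%). Among all 13936 genes tested that had such a window, 3.68% held one, and among 51 other genes known to be induced by p53, 31.4% did. The members are textbook targets of p53, so the difference describes how they were chosen. The matches are written 5′ to 3′ on the strand of the gene, with the central C, 2 bases and G of each decamer in capitals.
CDKN1A: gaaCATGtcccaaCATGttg
MDM2: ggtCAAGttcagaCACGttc
BTG2: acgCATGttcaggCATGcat
GDF15: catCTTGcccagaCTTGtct
ZMAT3: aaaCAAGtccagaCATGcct
The CDKN1A match lies upstream of the MANE Select start (chr6:36676449-36676468, first base at -2265 from it) and the MDM2 match lies in an intron (chr12:68808923-68808942). The BTG2 match (chr1:203303642-203303661) and the GDF15 match (chr19:18385308-18385327) are upstream of that start as well, with first bases at -1877 and -850. The CDKN1A and GDF15 matches nevertheless overlap the wider gene positions given below. The ZMAT3 match is intronic (chr3:179070188-179070207) and has 0 mismatches, against 2 in each of the other 4 that are printed. RRM2B held an intronic match with 1 mismatch, and no match of this kind was found in the windows of PLK3, SESN1 and TP53INP1. A match describes the letters and not binding.

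Of the 9 members, 5 rose in OGTi cells and 0 fell by the Wald test of DESeq2 with replicate as a block, at a Benjamini-Hochberg adjusted p (q) of 0.05 or lower. The genes that rose were CDKN1A, PLK3, BTG2, SESN1 and RRM2B. Among all 14028 genes with a q, 22.7% were called higher and 24.0% lower. The median log2 fold change of the members was 0.58, against 0.00 over all genes tested. In 7 of the 9 members the OGTi libraries all lay above the control libraries, a pattern present in 19.8% of all genes with a q (20.2% had the opposite pattern). It follows that these 7 members were higher in all 4 pairs, as MDM2 and ZMAT3 were not. With edgeR, without the replicate block or with at least 10 counts in 4 libraries, 7 members were called higher, TP53INP1 and GDF15 being added. Under these settings 7074 of 14895, 6307 of 14602 and 6612 of 13127 genes were called in either direction. The groups overlapped for MDM2 and ZMAT3. These 2 genes also had fractional counts, because reads that align to several genes are shared between them, while the other 7 had whole counts in every library.

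**Figure D1:**
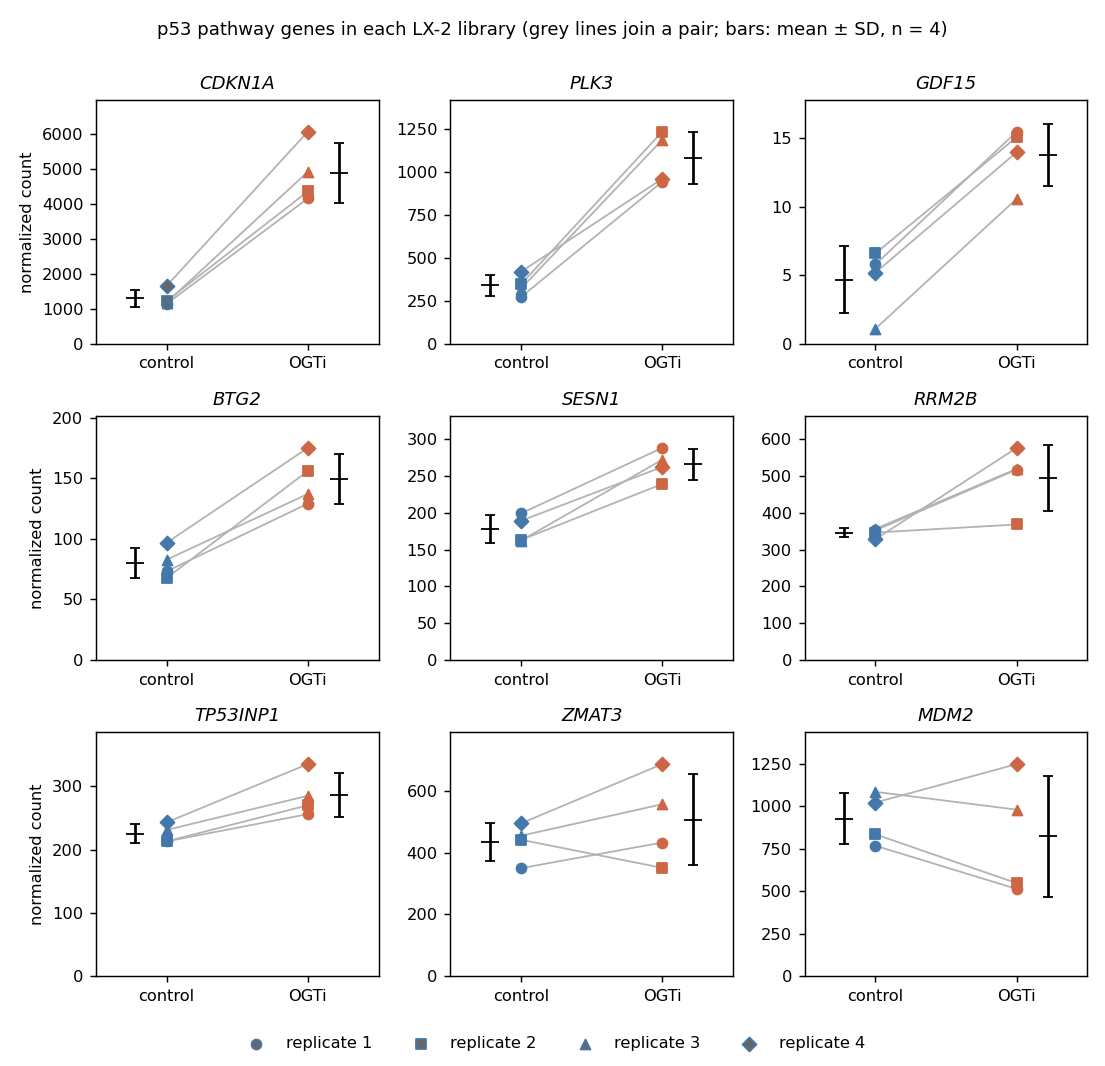
Normalized counts (y axis, from 0) of the 9 genes in each control (blue) and OGTi (orange) library, ordered by log2 fold change, with a marker shape for each replicate, grey lines joining the control and OGTi library of a pair, and black bars for mean ± SD (n = 4). CDKN1A goes from 1138 to 1653 in control to 4154 to 6063 in OGTi libraries, whereas the MDM2 values of the groups overlap.

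CDKN1A (chromosome 6, 36676460 to 36687337, plus strand) encodes p21. Its normalized counts were 1138, 1218, 1178 and 1653 in control replicates 1 to 4 and 4154, 4357, 4918 and 6063 in the OGTi replicates. All OGTi libraries were above all controls, and replicate 4 was the highest of its group on both sides. The log2 fold change was 1.91 ± 0.08 (standard error), a 3.76-fold rise, with a DESeq2 q of 1.91e-134. The log2 ratio within the pairs stayed between 1.84 and 2.06. By the Wald statistic CDKN1A ranked number 3 from the top of the 14028 genes, and by size of the rise it ranked 183.

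PLK3 (chromosome 1, 44800377 to 44805990) encodes a Polo-like kinase of the stress response. Its normalized counts were 272, 346, 321 and 419 in control and 943, 1234, 1187 and 960 in OGTi replicates 1 to 4. The groups were far apart, and the rise was smallest in pair 4, where the control was highest. The log2 fold change was 1.68 ± 0.13 (DESeq2 q of 1.41e-36), with a log2 ratio of 1.19 in pair 4 and 1.79 to 1.89 in the other pairs. BTG2 (chromosome 1, 203305491 to 203309602) encodes an antiproliferative protein that recruits the CCR4-NOT deadenylase to messenger RNA. It was expressed at a lower level, at 73.1, 67.6, 82.7 and 96.7 normalized counts in control and 129, 156, 137 and 175 in OGTi libraries. The groups did not overlap, and the log2 fold change was 0.90 ± 0.22 (DESeq2 q of 0.000206).

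PLK3 and BTG2 are also known as immediate early genes, which respond within minutes to serum and other stimuli. The 14 immediate early genes listed were mixed, as 6 rose (42.9%, against 22.7% of all genes) and 4 fell (28.6%, against 24.0%). Their median log2 fold change was 0.31. JUNB, which encodes an AP-1 subunit, had the largest statistic (1.37 ± 0.12, DESeq2 q of 4.04e-30), followed by IER2 (0.65 ± 0.09) and ZFP36, an RNA-decay factor (0.87 ± 0.12). The part of this response in the rise of PLK3 and BTG2 was not tested.

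SESN1 (chromosome 6, 108984309 to 109094846, minus strand) encodes sestrin 1, a stress-inducible inhibitor of mTORC1 signalling. Its normalized counts were 199, 163, 162 and 189 in control and 288, 239, 272 and 262 in OGTi libraries. The groups did not overlap, and the log2 fold change was 0.58 ± 0.16 (DESeq2 q of 0.00132). RRM2B (chromosome 8) encodes the p53-inducible small subunit of ribonucleotide reductase, which supplies deoxynucleotides for DNA repair. The control libraries had 352, 346, 356 and 328 normalized counts and the OGTi libraries 517, 368, 519 and 576. OGTi replicate 2 was just above the controls, and the other OGTi libraries were well above them. The log2 fold change was 0.50 ± 0.14 (DESeq2 q of 0.00139), and without replicate 4 the gene was no longer called (0.40, q of 0.0599).

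TP53INP1 (chromosome 8) encodes a p53-inducible nuclear protein with roles in autophagy and cell death. Its values were 213, 213, 231 and 243 in control and 256, 270, 285 and 335 in OGTi libraries. It was higher in all 4 pairs, the groups did not overlap, and the log2 fold change of 0.34 ± 0.15 just missed the threshold (DESeq2 q of 0.0512). It was past the threshold in edgeR (q of 0.0201), without the replicate block (q of 0.0288) and with a stricter count filter (q of 0.0386).

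MDM2 (chromosome 12, 68808177 to 68845544) had 767, 834, 1084 and 1021 normalized counts in control and 513, 547, 979 and 1247 in OGTi replicates 1 to 4. It was lower in 3 pairs and higher in pair 4, and in both groups replicates 3 and 4 lay above replicates 1 and 2. The log2 fold change was -0.26 ± 0.14 (DESeq2 q of 0.112, 95% interval from -0.53 to 0.01), so a rise of the size seen in CDKN1A or PLK3 lies outside the interval. Without replicate 4 it was called lower (-0.44, DESeq2 q of 0.00813), and without the replicate block it was not called (-0.17, DESeq2 q of 0.715). The log2 ratio of MDM2 within the pairs ran from -0.61 to 0.29, so the pairs spread more widely than the interval. ZMAT3 (chromosome 3, 178960121 to 179072215, minus strand) encodes a zinc finger protein that binds RNA and regulates splicing. It had 350, 442, 455 and 495 normalized counts in control and 433, 351, 557 and 687 in OGTi libraries, and was higher in 3 of 4 pairs. Its log2 fold change of 0.19 ± 0.14 was not called (DESeq2 q of 0.293, 95% interval from -0.09 to 0.47), but without replicate 2, the pair in which it was lower, it was called higher (0.36, q of 0.0479).

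GDF15 (chromosome 19, 18374731 to 18389176) encodes a secreted stress cytokine of the TGF-β superfamily. It was barely detected, at 5.8, 6.6, 1.1 and 5.2 normalized counts in control and 15.5, 15.1, 10.6 and 14.0 in OGTi libraries. Each OGTi library was above each control, yet the log2 fold change of 1.66 ± 0.77 had a 95% interval from 0.15 to 3.18 and a DESeq2 q of 0.0647. The q was 0.0444 in edgeR, 0.0351 without the replicate block and 0.0492 with the stricter count filter. GDF15 is also a known target of ATF4, a transcription factor of the integrated stress response. Of the 12 ATF4 targets listed, 8 rose (66.7%, against 22.7% of all genes) and 0 fell (median log2 fold change of 0.82). The largest Wald statistics were those of SESN2 (1.01 ± 0.10), ASNS, the asparagine synthetase gene (1.03 ± 0.11), and CEBPB, a transcription factor gene (0.84 ± 0.10). SESN2 stands on both the ATF4 and the p53 list. The part of ATF4 in the change of GDF15 was not tested.

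**Figure D2:**
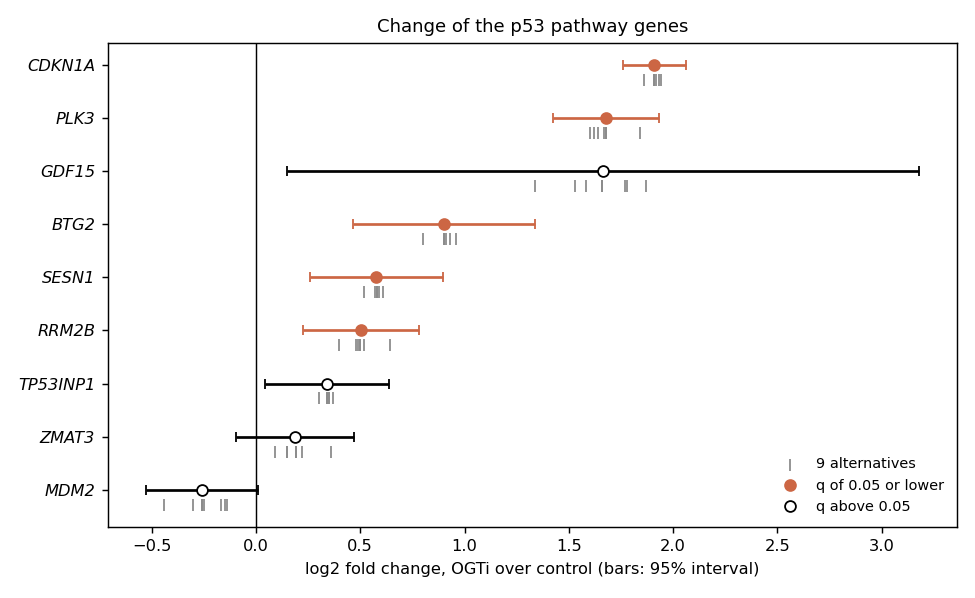
Log2 fold change of OGTi over control (x axis) for the 9 genes, as the DESeq2 estimate with its 95% interval, filled orange where q is 0.05 or lower and open where it is above. Grey ticks under each gene give the 9 alternative analyses. CDKN1A (1.91) and PLK3 (1.68) are far from 0 under every alternative drawn, the interval of GDF15 is the widest, and MDM2 is the 1 member with an estimate below 0.

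Levels of different genes were compared as normalized counts per kilobase of the MANE Select transcript. In control cells CDKN1A had the highest level of the members at 613 ± 113 per kilobase (SD, n = 4). It was followed by PLK3 (145 ± 26) and MDM2 (124 ± 20), whose ranges over libraries overlapped. RRM2B (72.3 ± 2.6) came next, then ZMAT3 (48.7 ± 6.9) and TP53INP1 (40.2 ± 2.6), which overlapped, then SESN1 (31.5 ± 3.3) and BTG2 (29.3 ± 4.7), which overlapped as well, and GDF15 was lowest (3.91 ± 2.0). In OGTi cells CDKN1A (2302 ± 405) and PLK3 (462 ± 65) each stood clear of the next gene, while MDM2 (110 ± 47) and RRM2B (104 ± 19) overlapped. ZMAT3, BTG2, TP53INP1 and SESN1 lay between 46.9 and 56.7 per kilobase, and each overlapped its neighbour in that order.

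The genes that control p53 or belong to its family were listed apart from its targets. Of 14 such genes tested, 13 had a q. Of these, 3 were called higher (23.1%, close to the 22.7% of all genes) and 1 lower (7.69%, against 24.0%). TP63, a p53 family member, rose from 79.5 ± 11.7 to 203 ± 108 normalized counts (1.24 ± 0.24 on the log2 scale), with OGTi replicate 2 the highest at 359. The kinase genes ATR (0.37 ± 0.11) and ATM (0.28 ± 0.10), whose products activate p53 after DNA damage, were called higher, but neither was called without the replicate block (q of 0.0610 and 0.0641), and ATM also lost its call when replicate 3 (q of 0.0718) or 4 (q of 0.198) was left out. CDKN2A, the locus of the MDM2 inhibitor ARF and of the CDK inhibitor p16, was called lower (-0.20 ± 0.07, DESeq2 q of 0.00778). This call was lost when the block was dropped (q of 0.0966) and when replicate 1 (q of 0.0507), 2 (q of 0.0606) or 4 (q of 0.0811) was left out. MDM4, the paralog of MDM2 that also restrains p53, was not called (-0.08 ± 0.14), nor was the phosphatase gene PPM1D (-0.09 ± 0.11), itself a target of p53.

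Most members have close relatives in the genome, and within several families the genes went in opposite directions. Of the 14 relatives listed, 13 were tested. Of these, 3 were called higher (23.1%, close to the 22.7% of all genes) and 6 lower (46.2%, against 24.0%). CDKN1B, which encodes the CDK inhibitor p27 of the same CIP/KIP family as p21, fell from 2422 ± 182 to 1116 ± 113 normalized counts (-1.12 ± 0.08, DESeq2 q of 2.20e-41). In the Polo-like kinase family PLK3 rose, while PLK1 (-1.24 ± 0.08), PLK2 (-1.31 ± 0.07) and PLK4 (-0.78 ± 0.09) fell. PLK2 is itself on the list of p53-induced genes. TP53INP2 fell (-0.46 ± 0.08). RRM2, the small subunit used in S phase, was called lower (-0.21 ± 0.08, DESeq2 q of 0.0243) but not without replicate 1 (q of 0.0542), 3 (q of 0.174) or 4 (q of 0.187). The sestrin genes moved together, with SESN2 (1.01 ± 0.10) and SESN3 (1.88 ± 0.28) higher beside SESN1. BTG1 rose (0.99 ± 0.11) as BTG2 did, and BTG3 was not called (-0.13 ± 0.12).

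**Figure D3:**
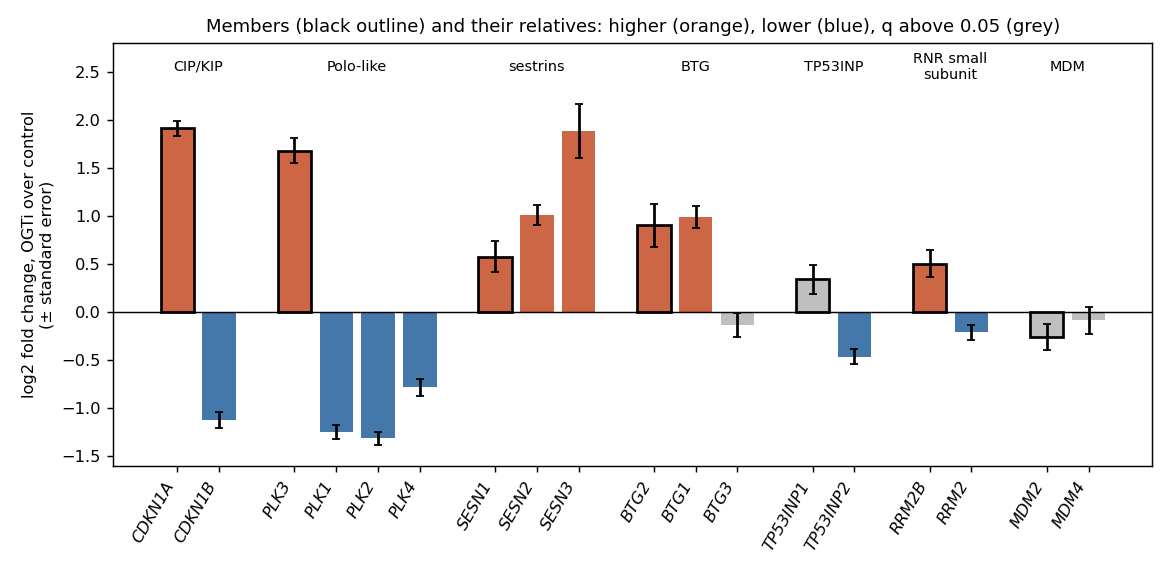
Log2 fold change of OGTi over control (y axis, bars with standard error) for the members (black outline) and their relatives, grouped by family. Orange bars were called higher, blue bars lower and grey bars had a q above 0.05, and 2 tested relatives with low counts are not drawn. CDKN1A and PLK3 are up where CDKN1B (-1.12) and the other Polo-like kinase genes are down, whereas all 3 sestrin genes are up.

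Because a ratio of 2 genes within a library does not depend on scaling, such ratios were tested. There were 8, of which 7 set a member against a relative and 1 set CDKN1A against MDM2. They were chosen after the changes were seen, so p-values adjusted over the 8 ratios do not account for that choice. Each had a two-sided exact permutation test of 4 against 4 libraries, whose smallest possible p is 0.0286. The log2 ratio of CDKN1A to CDKN1B went from -0.91 ± 0.32 in control to 2.12 ± 0.29 in OGTi libraries, a difference of 3.03 (exact p of 0.0286, adjusted p of 0.0457 over the 8 ratios). That of PLK3 to PLK2 went from -4.04 ± 0.24 to -1.05 ± 0.18, a difference of 2.99 with the same p-values. For these 2 ratios and for TP53INP1 to TP53INP2, the groups of both genes already lay apart in opposite directions. The smallest exact p was therefore fixed before the test, and it adds nothing to the values of the single genes. The ratios of CDKN1A to MDM2 (difference of 2.17), TP53INP1 to TP53INP2 (0.81) and RRM2B to RRM2 (0.71) also rose. Each rose in 4 of 4 pairs and had the smallest exact p. For RRM2B to RRM2 the groups barely lay apart, with the highest control at -3.603 and the lowest OGTi library at -3.599. For CDKN1A to MDM2, the groups of CDKN1A already lay apart while those of MDM2 overlapped, so the test adds little to the values of CDKN1A. With any pair left out, 3 libraries a group cannot give an exact p under 0.1. An exact test that exchanges signs within the 4 pairs cannot give a p under 0.125, so no ratio could pass 0.05 with the pairing kept. The ratio of SESN1 to SESN2 was lower in all 4 pairs by 0.43 ± 0.19 (SD over pairs, exact p of 0.0571, adjusted p of 0.0762), and its paired exact p was 0.125, the smallest possible. No difference was detected for MDM2 to MDM4 (-0.18, exact p of 0.514) or for BTG2 to BTG1 (-0.09, exact p of 0.743).

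A wider list of 52 further genes known to be induced by p53 was mixed. Of the 50 with a q, 18 were called higher (36.0%, against 22.7% of all genes) and 8 lower (24.0% of all genes were), and their median log2 fold change was 0.12. Genes of metabolism and autophagy had the highest share, with 6 of 11 higher (54.5%, against 22.7% of all genes) and 1 lower (9.09%, against 24.0%). They included FDXR, the ferredoxin reductase gene (1.23 ± 0.13), SESN2, and FUCA1, a lysosomal fucosidase gene (0.91 ± 0.11). Of the 15 cell death genes, 4 rose (26.7%, near the 22.7% of all genes) and 2 fell (13.3%, against 24.0%). TNFRSF10B, the TRAIL receptor gene (0.83 ± 0.08), and TP53I3, an oxidoreductase gene (1.10 ± 0.12), were higher. So was PMAIP1, which encodes the BH3-only protein NOXA (0.74 ± 0.11). Of the 6 arrest genes, 2 rose (33.3%, against 22.7% of all genes), BTG1 and the repressor gene E2F7 (0.40 ± 0.09). PLK2 was the 1 that fell (16.7%, against 24.0%).

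The 6 DNA repair genes had 1 call in each direction (16.7% each, against 22.7% of all genes higher and 24.0% lower). The damage sensor XPC was higher (0.69 ± 0.09), and FANCC, a Fanconi anaemia gene, was lower (-0.88 ± 0.12). REV3L, the catalytic subunit of a translesion polymerase, was not called (-0.19 ± 0.12) except without replicate 1 (-0.34, q of 0.0114). Of the 12 genes of signalling and other roles, 5 rose (41.7%, against 22.7% of all genes) and 3 fell (25.0%, close to the 24.0% of all genes). The ephrin receptor gene EPHA2 (0.78 ± 0.08) and SUSD6 (0.69 ± 0.08) rose, while CYFIP2, a component of the WAVE regulatory complex, fell (-1.37 ± 0.11, DESeq2 q of 2.25e-32).

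**Figure D4:**
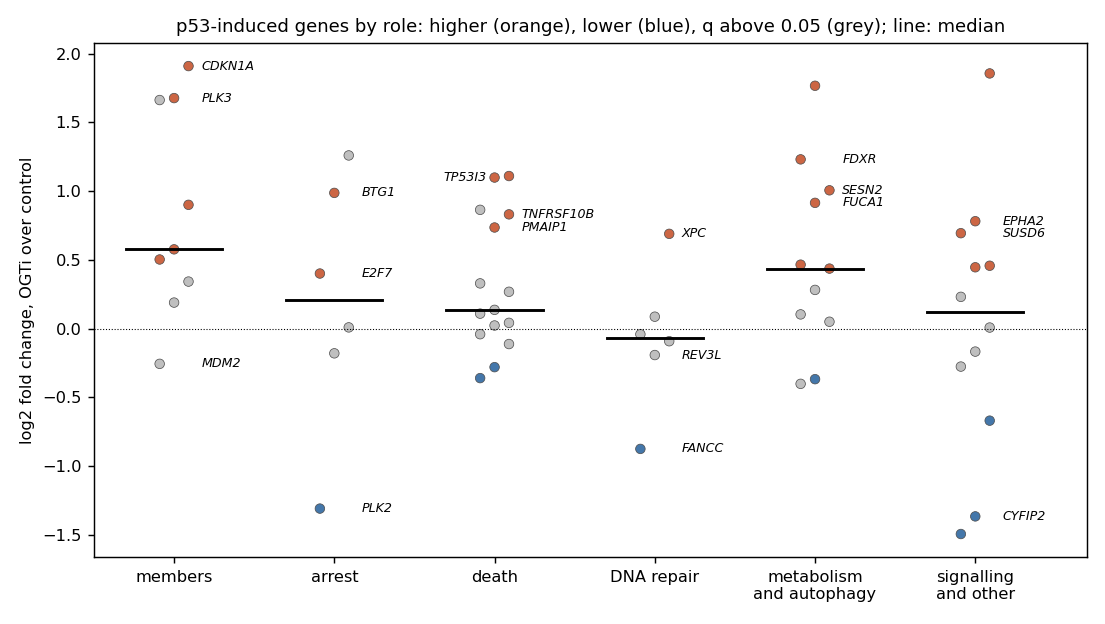
Log2 fold change of OGTi over control (y axis) for the 9 members and for the other p53-induced genes by role (x axis). Each point is a gene with a q, orange where called higher, blue where called lower and grey where not called, with the median as a black line and the 3 genes of largest statistic in each role named, and CDKN1A, PLK3 and MDM2 among the members. The median is 0.58 for the members, 0.44 for metabolism and autophagy and -0.07 for DNA repair.

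The partners of p21 and the genes downstream of it were described in the same way. The protein p21 binds CDK-cyclin complexes and PCNA, and cells with active p21 assemble the DREAM repressor complex, which silences cell-cycle genes. Of the 12 partner genes, 6 fell (50.0%, against 24.0% of all genes) and 2 rose (16.7%, against 22.7%). The mitotic and S-phase cyclin genes CCNB1 (4841 ± 152 to 2435 ± 341 normalized counts) and CCNA2 (log2 fold change of -0.89 ± 0.08) and the kinase genes CDK6 (-1.15 ± 0.12) and CDK1 (-0.52 ± 0.09) fell. CDK2 (-0.24 ± 0.08) and CCNE1 (-0.50 ± 0.20) were called lower, but the call of CDK2 was lost when the block was dropped (q of 0.104) or replicate 1 left out (q of 0.0808), and that of CCNE1 when replicate 1 (q of 0.0977), 2 (q of 0.119) or 4 (q of 0.185) was left out. The D-type cyclin genes CCND3 (0.29 ± 0.08) and CCND1 (0.80 ± 0.29) were called higher, although for CCND1 pair 1 (log2 ratio of 1.75) stood above the others (0.40 to 0.67), the value without replicate 1 was 0.49 (q of 1.07e-08), and the call was lost when replicate 2 (q of 0.0872) or 4 (q of 0.0503) was left out. CDK4 (-0.10 ± 0.07) and PCNA (0.09 ± 0.07) were not called.

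Of the 6 other CDK inhibitor genes, 1 rose (16.7%, against 22.7% of all genes) and 3 were called lower (50.0%, against 24.0%). CDKN2B, which encodes p15, rose (0.54 ± 0.09, DESeq2 q of 6.63e-08). CDKN1B and CDKN2C, which encodes p18 (-1.09 ± 0.08, DESeq2 q of 2.06e-40), fell, CDKN2A was called lower with the limits given above, and CDKN2D was not called (-0.18 ± 0.13). Of the 20 DREAM target genes, 14 fell (24.0% of all genes did) and 0 rose (22.7% of all genes did). The list includes CDK1, CCNA2 and CCNB1, and its median log2 fold change was -0.58. PLK1, ECT2, which encodes a regulator of cytokinesis (-0.88 ± 0.08), and BIRC5, which encodes survivin (-0.94 ± 0.08), had the largest statistics. Of the 10 DREAM subunit genes, 4 fell (44.4% of the 9 with a q, against 24.0% of all genes) and 0 rose. They included TFDP1, the E2F partner (-0.56 ± 0.06), RBL1, which encodes the pocket protein p107 (-0.66 ± 0.08), and E2F4 (-0.28 ± 0.08), which lost its call when replicate 2 (q of 0.0522) or 4 (q of 0.0580) was left out. Whether p21 had a part in these falls was not tested.

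Genes whose level closely resembled that of CDKN1A over the 8 libraries were CCNYL1 (Pearson r of 0.994), SOD2 (0.994), CISD2 (0.993) and SRD5A3 (0.993), among 10935 genes that averaged 100 normalized counts or more. The libraries share 1 treatment contrast, so these values describe the difference between the groups. All 4 were higher in OGTi cells, with log2 fold changes from 0.52 ± 0.08 for CISD2 to 1.43 ± 0.16 for SRD5A3, less than that of CDKN1A.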

How the data were processed

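The authors aligned paired-end, strand-specific reads of polyadenylated RNA to hg38 with Bowtie2 2.3.5.1 and counted genes with RSEM 1.3.1. Their deposited files hold expected counts (estimated counts, not scaled for depth) for 8 libraries. A deposited table of the authors' own DESeq2 comparison (base means, fold changes, p-values) was not used. Expected counts were rounded, and genes with a total under 10 were left out. This left 14895 genes, on which the DESeq2 1.42.0 Wald test was run (R 4.3.3), with median-of-ratios size factors and replicate as a block, following the study's methods, which pair treated and control samples of the same replicate. Deviations from the group mean correlated within every pair across 13082 genes (Pearson r of 0.295, 0.243, 0.111 and 0.189 for replicates 1 to 4), although control replicate 3 was closer to OGTi replicate 4 (0.191). Values are mean ± SD, and log2 fold changes carry their standard error. Alternatives were edgeR 4.0.16 (quasi-likelihood, TMM), no block, TMM size factors, other count filters and leaving out each pair. Positions came from GENCODE release 44, and p53 matches from hg38. Members, lists and tests were chosen with earlier results of these data known. The text names all members, chosen genes of the controller, partner, inhibitor and relative lists, the 3 genes of largest absolute Wald statistic in each other list, and genes among the 5 most correlated with CDKN1A. Some genes are not reported here and were left out of the lists and names. The markers and CD68 were named beside the lists they belong to.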

Additional observations from a re-analysis of the deposited data

Results flagged for a closer look

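Libraries that lay apart from the other 3 of their group, by the size of the gap relative to the range (Dixon's 95% criterion), were found in 5 of 120 groups examined, where chance gives about 6.0. The control level of CDKN1A was 1653 normalized counts in replicate 4, while the other controls had 1138 to 1218. PCNA had 9017 in control replicate 2, with 7864 to 8025 in the other controls, and 8041 in OGTi replicate 1, with 8858 to 8972 in the other OGTi libraries. The TNFRSF10B level was 2299 in OGTi replicate 2 and 2030 to 2075 in replicates 1, 3 and 4. ECT2 had 2198 in OGTi replicate 3, and 2305 to 2317 in replicates 1, 2 and 4.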

How the results depend on the processing

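Of 650 values recomputed under the alternatives, the ratios left aside, 614 kept their direction and their side of the threshold, or for counts stayed within 1.5 times. Without the replicate block, with edgeR and with at least 10 counts in 4 libraries, TP53INP1 (0.35, 0.34 and 0.34) and GDF15 (1.53, 1.58 and 1.66) were called higher. Dropping the block left 1 of the 3 p53 controllers called higher, and changed no other call of a member. With the pairing kept, the 5 ratios at the smallest exact p had a paired exact p of 0.125, the smallest that 4 pairs allow. With edgeR 2 controllers were called lower. With each replicate left out in turn, the log2 fold change ranged from -0.44 to -0.14 for MDM2, from 0.09 to 0.36 for ZMAT3 and from 0.40 to 0.64 for RRM2B. Members called lower ranged from 0 to 1 and controllers called lower from 0 to 1. MDM4 ranged from -0.15 to 0.00, the estimate turning sign without replicate 1 (q of 0.992). The BTG2 to BTG1 ratio ranged from -0.33 to 0.08 and turned positive without replicate 1 (0.02) and replicate 3 (0.08). The cause of these changes was not tested. All calls numbered 6541 and ranged from 5127 to 7074 over the alternatives. Depth limits GDF15 in particular, at 1 to 17 counts per library. With 4 pairs, small changes such as that of TP53INP1 lie at the edge of detection.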
